A study of Mus musculus with 8 samples.

Results

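The 34 genes described here are induced by type I interferons, and were taken from the 54188 genes of the deposited table by their symbols. They were measured by RNA-seq in CD11b+Gr-1hi and CD11b+Gr-1lo myeloid cells sorted from the spleen and the bone marrow (BM) of sanroque mice. Sanroque mice are C57BL/6 mice that carry the san mutation of Roquin on both alleles, and they develop a lupus-like disease spontaneously. Every library came from animals of this genotype, labelled female and about 20 weeks old, so no wild-type value stands beside these levels. The 4 groups are spleen Gr-1hi (libraries 5 and 6), spleen Gr-1lo (7 and 8), BM Gr-1hi (9 and 10) and BM Gr-1lo (11 and 12), with 2 libraries per group. The labels call the Gr-1hi cells G-MDSC and the Gr-1lo cells M-MDSC, which stand for granulocytic and monocytic myeloid-derived suppressor cells. Each sorted population is bulk material defined by these surface proteins alone, and the study calls the 2 libraries of a group independent biological replicates without saying which libraries share a mouse. It describes the BM cells as autologous to those of the spleen. Some spleen and BM libraries may therefore share animals, which the tests here do not use. By the sex-linked RNAs given below, library 5 shares no animal with any BM library.

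Type I interferons are antiviral cytokines that bind the receptor made of IFNAR1 and IFNAR2. The receptor's kinases JAK1 and TYK2 start a signal that leads to a transcription complex containing STAT2 and IRF9, which binds interferon-stimulated response elements in the promoters of target genes. The products of these genes detect foreign nucleic acid, block the translation or assembly of viruses, or feed back on the pathway, and a raised interferon signature in blood cells is a known feature of lupus. Interferon-gamma, the type II interferon, acts through another receptor, and it shares some of these targets.

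The libraries held between 33453580 and 68316154 counted reads, and all 34 members passed the filter on low counts that left 17650 genes for testing. Levels are counts scaled to library size by TMM (CPM). Where no read was counted, a level below 3 reads (0.0348 to 0.124 CPM, depending on the library) could not be told from 0, as far as counting error goes. The p-values measure the spread between the libraries of a group. *Ly6g*, which encodes a Gr-1 antigen, ranged from 330.0 to 801 CPM in the Gr-1hi libraries and from 3.07 to 8.23 CPM in the Gr-1lo libraries, and *Itgam*, which encodes CD11b, was at 734 CPM or more in all 8. *Xist*, an RNA of female cells, was at 363 CPM in library 5 and 209 CPM in library 7 but at 0.102 CPM or less in the other 6. *Ddx3y*, a gene of the Y chromosome, was at 0 in library 5, at 33.7 CPM in library 7 and at 52.5 CPM or more in the other 6. Against the label, 7 of the 8 libraries thus held RNA of the Y chromosome. Libraries 5 and 7, which held *Xist*, are both from spleen, and every BM library held *Ddx3y* with almost no *Xist*. Library 7 held both RNAs, so it may be a mixture of cells from animals of both sexes. The study does not say how many animals made up a library. Sex thus differed in part between spleen and BM, and the fit of all 8 libraries does not separate its part from that of tissue. Spleen libraries 6 and 8 had the *Xist* and *Ddx3y* pattern of the BM libraries. They are the spleen libraries that remain when libraries 5 and 7 are left out. Calls that were lost without libraries 5 and 7 are given below.

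The promoters of several members hold the letters of the interferon-stimulated response element, and 5 of them are shown because their genes mark the ends of the patterns below. *Isg15* and *Ifit3* were higher in spleen than in BM Gr-1hi cells, *Ifit3b* is a close copy of *Ifit3*, *Rsad2* had the largest excess in Gr-1hi over Gr-1lo cells, and *Bst2* differed between the subsets in the opposite direction. Each window runs from 250 bases before to 50 bases after the start site in RefSeq (GRCm38.p6) and is written 5′ to 3′ on the gene's strand. Capitals mark GAAA, 2 bases of any kind and GAAA again, read on either strand, so that overlapping matches form 1 run. The windows lie at chr4:156200769-156201068 on the minus strand for *Isg15*, chr19:34583279-34583578 on the plus strand for *Ifit3* and chr19:34607707-34608006 on the plus strand for *Ifit3b*. Those of *Rsad2* and *Bst2* lie on the minus strand at chr12:26456403-26456702 and chr8:71537423-71537722.
Isg15: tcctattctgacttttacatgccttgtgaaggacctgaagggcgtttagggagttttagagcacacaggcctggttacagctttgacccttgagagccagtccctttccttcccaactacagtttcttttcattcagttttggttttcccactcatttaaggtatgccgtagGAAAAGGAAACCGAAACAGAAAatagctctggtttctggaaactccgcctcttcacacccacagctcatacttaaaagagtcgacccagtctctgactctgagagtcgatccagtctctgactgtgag
Ifit3: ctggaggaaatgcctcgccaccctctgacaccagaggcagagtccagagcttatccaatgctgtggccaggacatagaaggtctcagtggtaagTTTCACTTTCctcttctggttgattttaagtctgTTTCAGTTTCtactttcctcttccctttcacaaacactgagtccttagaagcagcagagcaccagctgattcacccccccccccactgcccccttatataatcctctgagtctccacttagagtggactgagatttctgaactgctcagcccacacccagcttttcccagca
Ifit3b: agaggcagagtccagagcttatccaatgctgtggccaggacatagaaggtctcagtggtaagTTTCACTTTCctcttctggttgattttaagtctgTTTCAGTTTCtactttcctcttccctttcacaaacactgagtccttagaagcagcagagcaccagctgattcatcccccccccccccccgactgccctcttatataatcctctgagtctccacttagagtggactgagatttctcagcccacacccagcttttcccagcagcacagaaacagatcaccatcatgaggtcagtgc
Rsad2: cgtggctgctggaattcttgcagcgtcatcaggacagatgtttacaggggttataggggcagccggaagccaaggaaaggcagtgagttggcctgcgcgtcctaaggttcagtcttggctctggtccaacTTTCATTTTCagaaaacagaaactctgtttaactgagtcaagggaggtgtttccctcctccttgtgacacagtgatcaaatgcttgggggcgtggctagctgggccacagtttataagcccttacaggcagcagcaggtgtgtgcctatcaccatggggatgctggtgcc
Bst2: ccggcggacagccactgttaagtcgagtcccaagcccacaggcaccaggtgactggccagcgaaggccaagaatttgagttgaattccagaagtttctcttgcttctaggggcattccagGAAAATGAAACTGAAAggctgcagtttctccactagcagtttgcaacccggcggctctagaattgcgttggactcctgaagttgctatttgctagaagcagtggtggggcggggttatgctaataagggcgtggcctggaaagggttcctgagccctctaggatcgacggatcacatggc

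Of the 34 members, 25 had a promoter in the RefSeq table used here, and 15 of these 25 (60.0%) held the motif in at least 1 window. Among all 27025 genes of that table the share was 3.99%. The *Isg15* window held 3 overlapping matches from 78 to 57 bases before the start site, and that of *Bst2* held 2 overlapping matches from 130 to 115 bases before it. *Ifit3* and *Ifit3b* each held 2 separate matches 34 bases apart, and *Rsad2* held 1 match at 120 bases before the start. *Stat2*, *Ifit1* and *Oas3* also held matches upstream, those of *Oas1a* and *Oas1g* reached to within 5 bases of the start, and in *Ddx58*, *Ifih1*, *Ifitm3* and *Eif2ak2* every match began after it. *Trim30a* has 2 start sites in the table, with a match before 1 of them and after the other. The letters TTCNNNGAA, the core of the gamma-activated site, which reads the same on both strands and can share bases with the first motif, were in 7 of the 25 genes (28.0%) and in 9.55% of all genes. A match is a description of the letters and no measurement of binding. *Mx1*, *Mx2*, *Zbp1*, *Parp14*, *Usp18*, *Parp9*, *Rtp4*, *Dhx58* and *Oas2* had no entry.

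**Figure D1:**
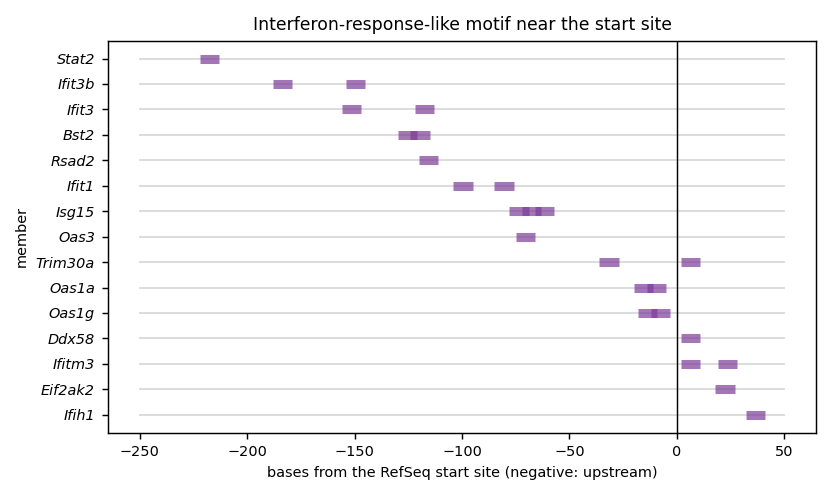
Positions of the motif GAAA, 2 bases and GAAA (either strand) in the promoter windows of the 15 members that hold it. The x axis is the distance in bases from the RefSeq start site, grey lines span the window and purple blocks are matches. Matches lie between 222 bases before the start, in *Stat2*, and 41 bases after it, in *Ifih1*.

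Summed over the 34 members, the level was 12738 and 11115 CPM in the 2 spleen Gr-1hi libraries, 7116 and 9090 CPM in BM Gr-1hi, 3086 and 3513 CPM in spleen Gr-1lo, and 2393 and 2680 CPM in BM Gr-1lo. The groups did not overlap, and the members took 1.11% to 1.27% of the scaled counts in spleen Gr-1hi cells but 0.239% to 0.268% in BM Gr-1lo cells. Compared per kilobase of exon (RPKM), *Ifitm3*, which encodes a membrane protein that blocks virus entry, was the most abundant member in each of the 4 groups, with mean RPKM from 729 in BM Gr-1lo to 1249 in BM Gr-1hi cells. *Ifi44*, an interferon-induced gene whose role is poorly known, was the least abundant in each group, with mean RPKM from 0.0440 to 0.675. The ranks between these ends differed between the subsets. *Oasl2* was in position 2 by RPKM in both Gr-1hi groups but in positions 9 and 11 in spleen and BM Gr-1lo cells. *Bst2* was in position 5 in both Gr-1lo groups and in position 31 in both Gr-1hi groups, and *Rsad2*, next to last at position 33 in both Gr-1lo groups, stood at positions 14 and 13 in Gr-1hi cells of spleen and BM. In bulk RNA, fewer cells that express a gene and less RNA of it per cell cannot be told apart.

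**Figure D2:**
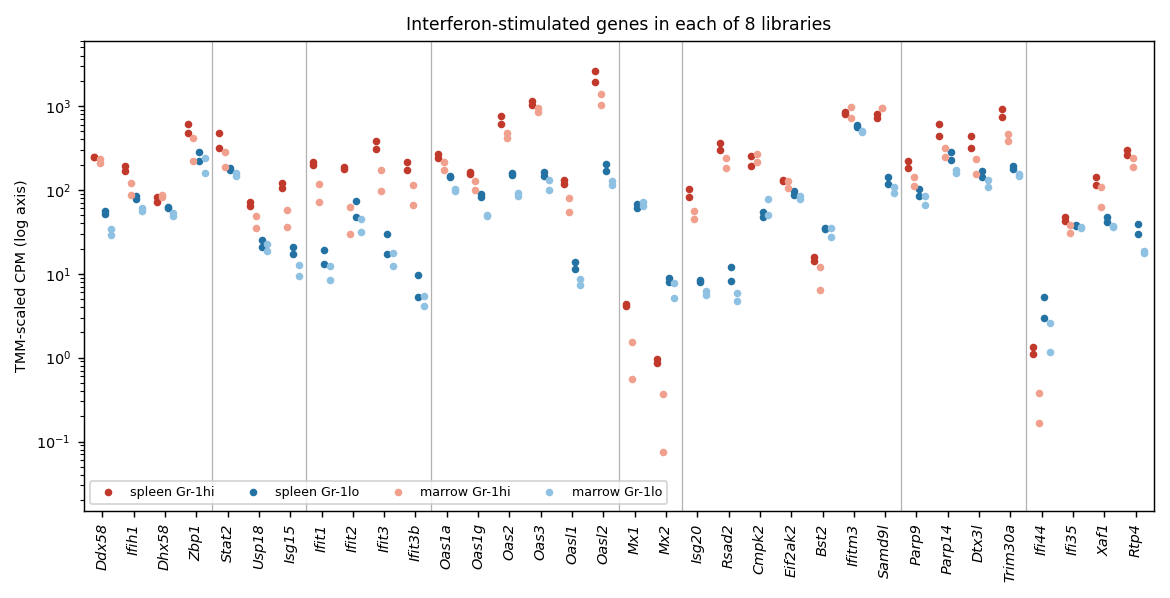
TMM-scaled CPM on a log axis for the 34 members, grouped by role and separated by grey lines. Each point is a library, red for Gr-1hi and blue for Gr-1lo cells, dark for spleen and light for BM. Red points lie above blue points for most members, and below them for *Mx1*, *Mx2* and *Bst2*. For *Ifi44* red lies below blue within each tissue, but library 6 (1.34 CPM) was above library 11 (1.17 CPM).

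Libraries of the same group differed in a coordinated way. Library 10 was above library 9 for 33 of the 34 members, with a median log2 ratio of 0.395, whereas over all genes tested 52.0% were higher in library 10. Library 8 was above library 7 for 33 members, with a median log2 ratio of 0.192, and library 12 was above library 11 for 27 members (55.6% over all genes). In spleen Gr-1hi cells, library 5 was above library 6 for 26 members, while 49.4% of all genes were higher in library 6. The libraries of both spleen pairs also differed in *Xist* and *Ddx3y*, as given above. Of the monocyte markers, *Ccr2* was at 6.73 CPM in library 9 and 38.6 CPM in library 10, and *F13a1* at 1.83 and 17.4 CPM. All 6 monocyte markers summed to 1321 and 1716 CPM in these libraries. They summed to 1001 and 1124 CPM in libraries 5 and 6, against the direction of most members. In libraries 7 and 8 the sums were 4735 and 5155 CPM, and in libraries 11 and 12 they were 6002 and 6188 CPM. The part of these markers and of sex in the difference between the libraries was not tested.

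**Figure D3:**
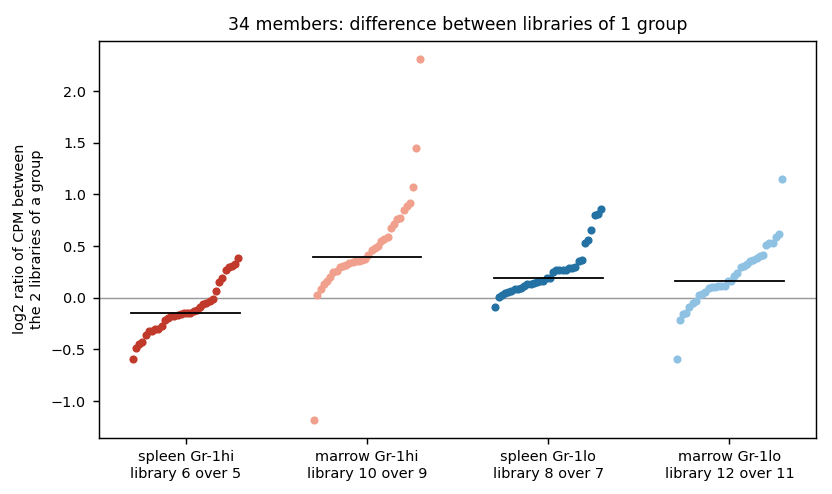
Log2 ratio of CPM between the 2 libraries of each group for the 34 members, sorted within a group. Each point is a member and the black line is the median, which was -0.149 in spleen Gr-1hi, 0.395 in BM Gr-1hi, 0.192 in spleen Gr-1lo and 0.160 in BM Gr-1lo cells.

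The first question was how the 2 subsets differ in either tissue. In BM, 18 of the 34 members (52.9%) were higher and 4 (11.8%) lower in Gr-1hi than in Gr-1lo cells, with a fold change of 2 or more and an adjusted p (edgeR's quasi-likelihood test, Benjamini-Hochberg over all genes) no higher than 0.05. Of all genes tested, 24.2% were higher and 33.1% lower by this rule. In spleen, 24 members (70.6%) were higher and 4 lower, against 22.3% and 27.4% of all genes. The 4 lower members were *Mx1*, *Mx2*, *Bst2* and *Ifi44* in both tissues. The median log2 fold change of the members was 1.11 in BM and 1.56 in spleen, while the median of all genes was -0.17 and -0.09. RLE scaling moved the latter to -0.03 and 0.04, and the members' medians to 1.26 and 1.70. Libraries of the 2 subsets did not overlap for 27 higher and 4 lower members in BM and for 30 higher and 4 lower members in spleen, against 40.6% of all genes higher without overlap in either tissue and 48.2% lower in BM and 45.6% lower in spleen. At an adjusted p below 0.01 and a fold change above 8, 9 members were higher and 2 lower in BM, against 6.56% and 10.1% of all genes, and 8 were higher and 2 lower in spleen, against 4.44% and 2.93%. The subsets also differed in the markers that define them. The 6 neutrophil markers summed to between 55794 and 93018 CPM in Gr-1hi and between 3221 and 6753 CPM in Gr-1lo libraries, and the 6 monocyte markers to between 1001 and 1716 CPM and between 4735 and 6188 CPM. None of these 12 markers was at 0 in any library. In spleen the 8 B cell markers summed to between 339 and 501 CPM in Gr-1hi and between 62.5 and 78.8 CPM in Gr-1lo libraries. The 8 T cell markers summed to between 58.2 and 92.9 CPM and between 19.0 and 28.6 CPM. In both lists 8 of 8 were higher without overlap. In BM the B cell markers summed to between 14.3 and 17.8 CPM and between 7.85 and 9.69 CPM, with 7 higher and 1 lower. The part of all these markers in the difference of the members was not tested. Without libraries 5 and 7, 17 members were higher and 4 lower in BM, and 17 were higher and 3 lower in spleen. The calls lost in spleen were those of *Parp9*, *Parp14* and *Ifih1*, whose log2 fold changes fell to 0.799, 0.644 and 0.973, and of *Zbp1* (0.757), *Stat2* (0.778), *Dtx3l* (0.861), *Ifit2* (1.29) and *Bst2* (-1.30), whose adjusted p in edgeR's test ranged from 0.0513 to 0.389.

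**Figure D4:**
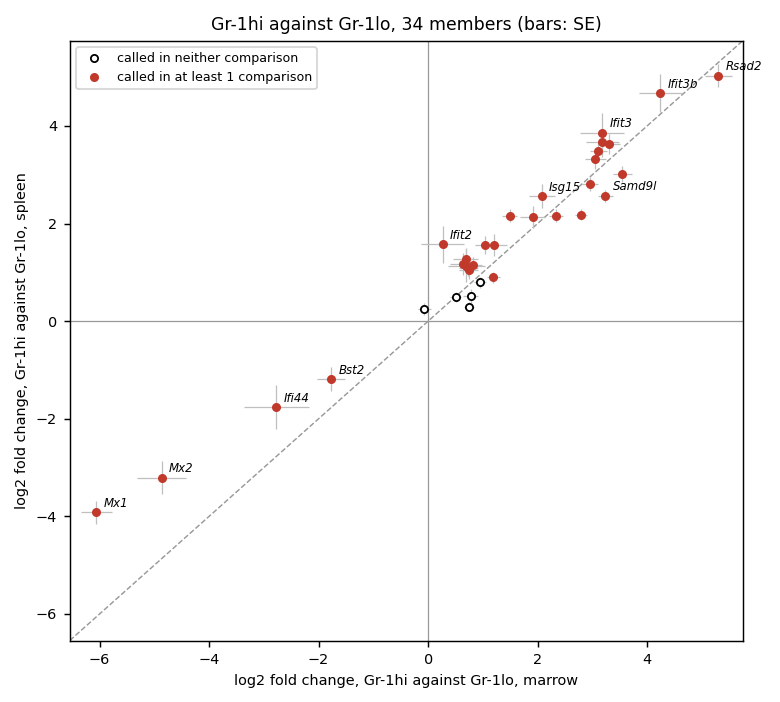
Log2 fold change of Gr-1hi against Gr-1lo cells in BM (x axis) and spleen (y axis) for the 34 members, with standard errors as bars. Filled points passed the test at a fold change of at least 2 in at least 1 tissue, and the dashed line marks equal values. *Mx1*, *Mx2*, *Ifi44* and *Bst2* lie in the lower left, and *Rsad2* and *Ifit3b* at the upper right.

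The second question was how cells of the same gate differ between spleen and BM. Among Gr-1hi cells, 8 of the 34 members (23.5%) were higher in spleen and 0 lower, against 14.0% and 1.48% of all genes. The 8 were *Isg15*, the 4 *Ifit* genes, *Mx1*, *Mx2* and *Ifi44*. With the same limit on the adjusted p but none on the fold, 23 members were higher and 0 lower, against 20.1% and 13.9% of all genes. Libraries did not overlap for 30 members that were higher, against 35.9% of all genes, and for 2 that were lower, *Dhx58* and *Samd9l*, against 31.9%. The median log2 fold change was 0.74 over the members and 0.03 over all genes. Among Gr-1lo cells, 0 members passed at a fold change of at least 2 in either direction, against 3.84% of all genes higher and 0.215% lower, and DESeq2 also called 0. Without a fold limit, 5 members were higher and 0 lower (4.88% and 0.697% of all genes), and 16 had an unadjusted p of at most 0.05 and a higher value in spleen (11.8% of all genes). The 5 were *Ddx58*, *Oas1a*, *Oas1g*, *Oas2* and *Rtp4*. Libraries did not overlap for 26 members that were higher and 0 that were lower in spleen Gr-1lo cells, against 27.1% and 32.5% of all genes, and the median log2 fold change was 0.45.

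The counts among Gr-1hi cells changed when libraries were left out. Such a fit leaves 1 library in a group and less to estimate the spread from. Whether a lost call was due to the library left out was not tested. The 8 members became 2 (*Isg15* and *Mx1*) without library 5, 2 (*Ifit2* and *Mx1*) without library 9, 12 without library 10, and 1 (*Mx1*, log2 fold change 2.04, adjusted p = 0.0312 in edgeR's test) without libraries 5 and 7. Under the last setting the other 7 had log2 fold changes from 1.08 to 2.29 with adjusted p from 0.0690 to 0.171, and of the 23 members *Oas2*, *Oasl2*, *Mx1*, *Isg20*, *Rsad2*, *Parp14* and *Trim30a* kept an adjusted p of at most 0.05. The members' median log2 fold change was 0.653, and 31 of the 34 were positive. Among Gr-1lo cells *Oas1a* had an adjusted p = 0.0743 in edgeR's test without libraries 5 and 7, and *Rsad2* and *Rtp4* were called higher without library 7, alone or with library 5, and 0 members without any other single library. Markers of the sorted cells and of other cells also moved with the tissue. The 6 neutrophil markers summed to between 5551 and 6753 CPM in spleen and between 3221 and 3319 CPM in BM Gr-1lo libraries, with 5 of 6 higher without overlap, and to between 55794 and 65291 CPM in spleen and between 85739 and 93018 CPM in BM Gr-1hi libraries, with 4 of 6 lower. The 6 plasma cell markers summed to between 308 and 319 CPM in spleen and between 227 and 249 CPM in BM Gr-1lo libraries, with 6 of 6 higher. In Gr-1hi libraries their sums were 277 to 377 CPM in spleen and 99.9 to 101 CPM in BM, with 5 of 6 higher. The 6 plasmacytoid dendritic cell markers summed to between 17.2 and 22.9 CPM in spleen and between 10.1 and 11.2 CPM in BM Gr-1hi libraries. Of these, 4 were higher and 2 lower without overlap. In Gr-1lo libraries their sums were 42.8 to 44.4 CPM in spleen and 29.4 to 37.6 CPM in BM, with 2 higher and 1 lower. In Gr-1hi libraries the 8 B cell markers summed to between 339 and 501 CPM in spleen and between 14.3 and 17.8 CPM in BM, and all 8 were higher without overlap. The 8 T cell markers summed to between 58.2 and 92.9 CPM and between 6.52 and 9.68 CPM, also with 8 of 8 higher, and the 6 splenic macrophage markers to between 138 and 160.3 CPM and between 55.7 and 75.1 CPM, with 6 of 6 higher. The 5 erythroid markers summed to between 118 and 406 CPM in spleen and between 20.4 and 24.03 CPM in BM, where *Klf1* was at 0 in both libraries. In Gr-1lo libraries the B cell markers summed to between 62.5 and 78.8 CPM in spleen and between 7.85 and 9.69 CPM in BM, where *Cr2* was at 0 in library 11. The part of these cells in the tissue differences was not tested.

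**Figure D5:**
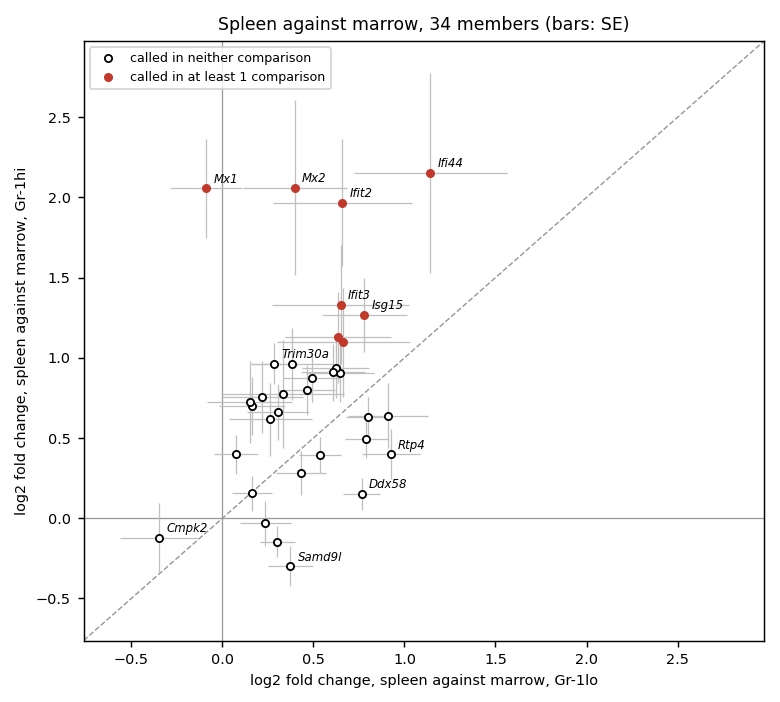
Log2 fold change of spleen against BM in Gr-1lo cells (x axis) and Gr-1hi cells (y axis) for the 34 members, with standard errors as bars. Filled points passed the test at a fold change of at least 2 in at least 1 subset, here always in Gr-1hi cells, and the dashed line marks equal values. *Mx1* lies at -0.09 on the x axis and 2.06 on the y axis.

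Of the members, 4 detect nucleic acid. *Ddx58* encodes the RNA sensor RIG-I and was at 246 and 243 CPM in spleen Gr-1hi, 209.5 and 230.5 CPM in BM Gr-1hi, 51.7 and 55.9 CPM in spleen Gr-1lo and 34.03 and 29.3 CPM in BM Gr-1lo libraries. The subsets did not overlap in either tissue, with a log2 fold change of 2.80 (SE 0.11, adjusted p = 1.61e-07) for BM and 2.18 (SE 0.10, adjusted p = 8.27e-07) for spleen. Its difference between spleen and BM was 0.77 (SE 0.10, adjusted p = 0.00332) in Gr-1lo cells and 0.15 (SE 0.10, adjusted p = 0.266) in Gr-1hi cells. *Ifih1* encodes the sensor MDA5, which binds long double-stranded RNA. It was at 191 and 169 CPM in spleen Gr-1hi, 85.8 and 121 CPM in BM Gr-1hi, 77.0 and 84.7 CPM in spleen Gr-1lo and 56.7 and 60.5 CPM in BM Gr-1lo libraries. Spleen Gr-1hi cells exceeded BM Gr-1hi cells by a log2 fold change of 0.80 (SE 0.15, adjusted p = 0.00600), without overlap. The spleen subsets differed by 1.15 (SE 0.16, adjusted p = 0.000181), which became 0.973 without libraries 5 and 7. *Zbp1* encodes a sensor of Z-form nucleic acid that can start necroptosis. It was at 618 and 481 CPM in spleen Gr-1hi, 222 and 420.2 CPM in BM Gr-1hi, 219 and 280.2 CPM in spleen Gr-1lo and 158 and 238 CPM in BM Gr-1lo libraries. The BM subsets overlapped, and only the difference between spleen subsets passed (log2 fold change 1.14, SE 0.34, adjusted p = 0.0200), a call that was lost without library 5, 6, 7 or 8. *Dhx58*, which encodes the regulator LGP2, was between 48.3 and 86.9 CPM in all 8 libraries. It was higher in Gr-1hi than in Gr-1lo cells of both tissues without overlap, below the fold limit.

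*Stat2*, *Usp18* and *Isg15* belong to the signalling and ISG15 cycle. *Isg15* encodes a small protein that is attached to other proteins like ubiquitin, and USP18 removes it and also restrains the receptor. *Isg15* was at 120.5 and 104 CPM in spleen Gr-1hi, 35.9 and 57.4 CPM in BM Gr-1hi, 17.2 and 20.7 CPM in spleen Gr-1lo and 9.46 and 12.6 CPM in BM Gr-1lo libraries. The 4 groups did not overlap, and spleen exceeded BM in Gr-1hi cells by a log2 fold change of 1.27 (SE 0.23, adjusted p = 0.00516). Without library 9 this was 0.895, below the fold limit, and without libraries 5 and 7 it was 1.18 (adjusted p = 0.0761 in edgeR's test). In Gr-1lo cells the log2 fold change was 0.78 (SE 0.23, adjusted p = 0.114). *Stat2*, the subunit of the transcription complex particular to type I and type III interferons, was at 478 and 316 CPM in spleen Gr-1hi, 188 and 282 CPM in BM Gr-1hi, 171 and 182 CPM in spleen Gr-1lo and 146 and 157 CPM in BM Gr-1lo libraries. It was higher in spleen than in BM Gr-1hi cells (log2 fold change 0.76, SE 0.22, adjusted p = 0.0339), below the fold limit. The spleen subsets differed by 1.17 (SE 0.23, adjusted p = 0.00182), which became 0.820 without library 5. *Usp18* ranged from 18.5 CPM in BM Gr-1lo to 71.8 CPM in spleen Gr-1hi cells and was called higher in Gr-1hi cells of both tissues. Its call in BM, at a log2 fold change of 1.03, was below the fold limit without library 10 (0.854) or 11 (0.865), without libraries 5 and 7, with no filter on low counts and on quantile-normalized TPM.

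The IFIT proteins bind viral RNA and hold back its translation, and the 4 genes lie together on chromosome 19, with *Ifit2* 7111 bases before *Ifit3*. *Ifit3* (chr19:34583531-34588731) was at 306 and 378 CPM in spleen Gr-1hi, 96.9 and 175 CPM in BM Gr-1hi, 17.1 and 29.8 CPM in spleen Gr-1lo and 12.4 and 17.6 CPM in BM Gr-1lo libraries. *Ifit3b* was at 172 and 214 CPM in spleen Gr-1hi, 66.9 and 114 CPM in BM Gr-1hi, 5.34 and 9.68 CPM in spleen Gr-1lo and 4.12 and 5.44 CPM in BM Gr-1lo libraries. Both were far higher in Gr-1hi cells, *Ifit3b* by a log2 fold change of 4.24 (SE 0.39, adjusted p = 5.41e-05) for BM and 4.67 (SE 0.39, adjusted p = 4.40e-05) for spleen. These 2 values are uncertain as to the gene, because 31.3% of the 101-base stretches of *Ifit3* also occur in *Ifit3b*, and 27.1% the other way round. *Ifit2* (chr19:34550694-34576419) was at 177 and 185 CPM in spleen Gr-1hi, 29.8 and 62.7 CPM in BM Gr-1hi, 47.3 and 74.3 CPM in spleen Gr-1lo and 31.5 and 45.6 CPM in BM Gr-1lo libraries. The BM subsets overlapped (log2 fold change 0.26, SE 0.38, adjusted p = 0.555), whereas spleen Gr-1hi cells exceeded spleen Gr-1lo cells by 1.57 (SE 0.39, adjusted p = 0.00985) and BM Gr-1hi cells by 1.97 (SE 0.40, adjusted p = 0.0114). The call between the spleen subsets was lost without library 5, 6 or 7 and with no filter on low counts (adjusted p = 0.0634 to 0.0979 in edgeR's test). The difference between the 2 tissue effects was 1.31 (SE 0.54, adjusted p = 0.155) and did not pass. *Ifit1* had log2 fold changes of 3.18 and 3.67 between the subsets in BM and spleen, and of 1.13 (SE 0.28, adjusted p = 0.0197) between spleen and BM in Gr-1hi cells. Except for *Ifit2* without library 9, none of the 4 genes kept its call between spleen and BM without library 5, 6 or 9, and none did without libraries 5 and 7.

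The OAS proteins make short 2′-5′-linked oligoadenylates that switch on RNase L, and the OASL proteins are relatives. All 6 lie on chromosome 5. *Oasl2* was the member with the highest CPM in spleen Gr-1hi libraries, at 2631 and 1959 CPM, against 1027 and 1373 CPM in BM Gr-1hi, 169 and 204 CPM in spleen Gr-1lo and 114 and 128 CPM in BM Gr-1lo libraries. The subsets differed by a log2 fold change of 3.31 (SE 0.20, adjusted p = 1.28e-06) for BM and 3.62 (SE 0.20, adjusted p = 1.90e-06) for spleen, and spleen Gr-1hi exceeded BM Gr-1hi cells by 0.94 (SE 0.18, adjusted p = 0.00676), just below the fold limit. Its neighbour *Oasl1*, 11005 bases away, was at 130.2 and 119 CPM in spleen Gr-1hi, 54.1 and 79.3 CPM in BM Gr-1hi, 11.3 and 13.7 CPM in spleen Gr-1lo and 7.42 and 8.60 CPM in BM Gr-1lo libraries. Neither gene overlapped between any pair of groups compared. *Oas2* and *Oas3* were called higher in Gr-1hi cells in both tissues, with log2 fold changes from 2.16 to 2.96. *Oas1a* and *Oas1g* differed less between the subsets, with log2 fold changes from 0.80 to 1.19, and share 40.6% and 31.04% of their 101-base stretches, so that reads may be split between them. Among Gr-1lo cells *Oas1a*, *Oas1g* and *Oas2* were higher in spleen by 0.54, 0.79 and 0.80 (adjusted p = 0.0292, 0.00646 and 0.00728 in edgeR's test).

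The MX proteins are dynamin-like GTPases that trap viral components, and the *Mx1* allele of C57BL/6 mice is known to make no functional protein. *Mx1* (ENSMUSG00000000386, chr16:97447035-97462907) was at 61.4 and 67.6 CPM in spleen Gr-1lo and 64.8 and 72.5 CPM in BM Gr-1lo libraries, but at 4.37 and 4.18 CPM in spleen Gr-1hi and 0.561 and 1.53 CPM in BM Gr-1hi libraries. The 2 Gr-1lo groups overlapped, and all Gr-1hi libraries were lower. The log2 fold change of Gr-1hi against Gr-1lo cells was -6.06 (SE 0.29, adjusted p = 3.93e-07) for BM and -3.92 (SE 0.24, adjusted p = 2.54e-06) for spleen. *Mx1* was higher in spleen than in BM among Gr-1hi cells, by 2.06 (SE 0.31, adjusted p = 0.00218), while in Gr-1lo cells the value was -0.09 (SE 0.20, adjusted p = 0.842). It was the only member whose tissue effect differed between the subsets at a fold change of at least 2. *Mx2* (ENSMUSG00000023341, chr16:97535308-97560900) was also lower in Gr-1hi cells, at a lower level. It was at 8.00 and 8.89 CPM in spleen Gr-1lo, 7.72 and 5.12 CPM in BM Gr-1lo, 0.964 and 0.861 CPM in spleen Gr-1hi and 0.0748 and 0.371 CPM in BM Gr-1hi libraries, the last of which rest on 2 and 9 counts. Its log2 fold change between the subsets was -4.87 (SE 0.45, adjusted p = 1.30e-05) for BM and -3.21 (SE 0.35, adjusted p = 4.70e-05) for spleen, and between spleen and BM Gr-1hi cells 2.06 (SE 0.55, adjusted p = 0.0206). That last call was lost without library 5 or 9, without libraries 5 and 7, and in a fit of the 4 libraries compared. On quantile-normalized TPM the differences of *Mx1* and *Mx2* between spleen and BM Gr-1hi cells were 1.56 and 0.900 and did not pass (adjusted p = 0.877 and 1.0 in edgeR's exact test). *Mx1* and *Mx2* share about 1% of their 101-base stretches (0.905% and 1.10%).

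Of the other antiviral effectors, *Rsad2* differed most between the subsets. It encodes viperin, an enzyme that makes a chain-terminating nucleotide, and was at 296 and 363 CPM in spleen Gr-1hi, 185 and 239 CPM in BM Gr-1hi, 8.21 and 11.9 CPM in spleen Gr-1lo and 4.77 and 5.97 CPM in BM Gr-1lo libraries. The log2 fold change between the subsets was 5.30 (SE 0.25, adjusted p = 4.35e-07) for BM and 5.03 (SE 0.24, adjusted p = 1.16e-06) for spleen. *Cmpk2*, a mitochondrial nucleotide kinase gene 12751 bases from *Rsad2* on chromosome 12 and on the opposite strand, differed by 1.91 and 2.13, and its libraries overlapped between spleen and BM in both subsets. *Isg20* encodes an exonuclease and was at 103 and 82.3 CPM in spleen Gr-1hi, 44.5 and 56.6 CPM in BM Gr-1hi, 8.02 and 8.40 CPM in spleen Gr-1lo and 6.17 and 5.54 CPM in BM Gr-1lo libraries. *Samd9l*, which encodes an inhibitor of translation, was at 727 and 806 CPM in spleen Gr-1hi, 934 and 949 CPM in BM Gr-1hi, 117 and 142 CPM in spleen Gr-1lo and 91.7 and 108 CPM in BM Gr-1lo libraries. Its log2 fold change between spleen and BM was -0.30 (SE 0.12, adjusted p = 0.0946) in Gr-1hi and 0.37 (SE 0.12, adjusted p = 0.141) in Gr-1lo cells. *Bst2* encodes tetherin, which holds budding virus at the cell surface. It was at 15.9 and 14.3 CPM in spleen Gr-1hi, 6.43 and 11.9 CPM in BM Gr-1hi, 34.4 and 34.7 CPM in spleen Gr-1lo and 27.2 and 35.1 CPM in BM Gr-1lo libraries. Gr-1hi cells were lower in both tissues, by a log2 fold change of -1.77 (SE 0.25, adjusted p = 0.000269) for BM and -1.19 (SE 0.24, adjusted p = 0.00239) for spleen, and the latter was -1.30 with an adjusted p = 0.0513 in edgeR's test without libraries 5 and 7. *Eif2ak2*, the gene of the translation-blocking kinase PKR, was between 78.9 and 131 CPM. It was higher in Gr-1hi cells of both tissues without overlap, below the fold limit. *Ifitm3* was higher in Gr-1hi cells by a log2 fold change of 0.78 in BM and 0.51 in spleen, below the fold limit, but on quantile-normalized TPM these values were -0.159 and -0.228 and did not pass.

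*Parp9*, *Parp14*, *Dtx3l* and *Trim30a* encode enzymes of ADP-ribosylation and ubiquitin transfer, of which DTX3L and PARP9 work as a pair. All 4 were called higher in Gr-1hi than in Gr-1lo cells of the spleen, and *Trim30a* also in BM. *Trim30a*, a restraint on inflammatory signalling, was at 908 and 736 CPM in spleen Gr-1hi, 385 and 459 CPM in BM Gr-1hi, 175 and 192 CPM in spleen Gr-1lo and 153 and 148 CPM in BM Gr-1lo libraries. Its log2 fold change between the subsets was 2.16 (SE 0.13, adjusted p = 2.36e-06) in spleen and 1.49 (SE 0.13, adjusted p = 8.91e-06) in BM, and 4.39% of its 101-base stretches also occur in *Trim30d*. *Dtx3l* was at 438 and 313 CPM in spleen Gr-1hi, 155 and 231 CPM in BM Gr-1hi, 142 and 169.8 CPM in spleen Gr-1lo and 107 and 132 CPM in BM Gr-1lo libraries. In spleen Gr-1hi cells all 4 genes exceeded BM Gr-1hi cells without overlap, by log2 fold changes from 0.66 to 0.96 that were all below the fold limit. Between the spleen subsets *Parp9* and *Parp14* fell under the fold limit without library 5 or 7, and *Dtx3l* without library 5, with log2 fold changes from 0.779 to 0.980. *Dtx3l* and *Parp9* overlap by 682 bases on opposite strands of chromosome 16, and the counts are labelled as stranded.

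*Rtp4* encodes a chaperone of receptors and was at 297 and 263 CPM in spleen Gr-1hi, 185 and 239 CPM in BM Gr-1hi, 30.1 and 38.9 CPM in spleen Gr-1lo and 17.6 and 18.8 CPM in BM Gr-1lo libraries. It was the member with the largest difference between spleen and BM among Gr-1lo cells of those that passed an adjusted p of 0.05, with a log2 fold change of 0.93 (SE 0.16, adjusted p = 0.0118). Exons of *Rtp4* overlap another annotated gene on the same strand, which makes its counts uncertain. *Xaf1*, a gene linked to cell death, was at 144 and 115 CPM in spleen Gr-1hi, 62.5 and 107 CPM in BM Gr-1hi, 41.1 and 47.0 CPM in spleen Gr-1lo and 36.0 and 37.5 CPM in BM Gr-1lo libraries. It was called higher in Gr-1hi cells of both tissues, in BM with a log2 fold change of 1.20 (SE 0.23, adjusted p = 0.00154) that was 0.850 without library 10. *Ifi44* was scarce in every group. It was at 2.997 and 5.27 CPM in spleen Gr-1lo, 1.17 and 2.59 CPM in BM Gr-1lo, 1.11 and 1.34 CPM in spleen Gr-1hi and 0.374 and 0.165 CPM in BM Gr-1hi libraries, the last resting on 10 and 4 counts. The log2 fold change of Gr-1hi against Gr-1lo cells was -2.77 (SE 0.59, adjusted p = 0.00251) for BM and -1.76 (SE 0.45, adjusted p = 0.00722) for spleen, where the call was lost without library 8 (adjusted p = 0.0544 in edgeR's test). Its log2 fold change of 2.15 (SE 0.62, adjusted p = 0.0294) between spleen and BM Gr-1hi cells lost the call without library 5, 6, 9 or 10. *Ifi35*, which encodes a leucine zipper protein, was between 30.4 and 48.1 CPM in all 8 libraries.

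The interaction tested whether the difference between spleen and BM was larger in Gr-1hi than in Gr-1lo cells, which is also the test of whether the subsets differ more in one tissue. It called 1 of the 34 members higher and 0 lower, against 7.74% and 2.00% of all genes. For *Mx1* the difference of the 2 log2 fold changes was 2.15 (SE 0.37, adjusted p = 0.00942). The value was 2.07 without libraries 5 and 7, and the call was lost. That fit had 1 library in each spleen group, so it cannot show that the call rested on those libraries. Without each single library the value was between 1.48 and 2.90, and the call was kept. DESeq2 called *Ifit2*, *Mx1* and *Mx2*. Without a fold limit 2 members were higher and 2 lower, against 10.3% and 6.08% of all genes. *Trim30a* had an interaction of 0.68 (SE 0.18, adjusted p = 0.0379), and *Ddx58* and *Samd9l* had interactions of -0.61 (SE 0.14, adjusted p = 0.0239) and -0.67 (SE 0.17, adjusted p = 0.0355). Without libraries 5 and 7 these 3 had adjusted p from 0.0657 to 0.171 in edgeR's test. The median interaction over the members was 0.34, and 0.0235 without library 9.

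Genes upstream of the members were counted from a list of 39 genes, of which 30 passed the filter. The listed ligands were scarce. Of the 9 type I and type III interferon genes on the list, 7 had 0 counts in all 8 libraries, and *Ifna2* and *Ifnl2* had 1 count each in 1 library. Of the *Ifna* genes the list held only *Ifna1*, *Ifna2*, *Ifna4* and *Ifna5*, and any other was not counted. In separate assays the study found more IFN-α expression in the spleen subsets than in B cells, mainly in the Gr-1hi subset. Whether the sorted cells make type I interferon was not tested here. *Ifng*, the gene of interferon-gamma, was at 1.93 and 1.56 CPM in spleen Gr-1hi, 0.507 and 0.800 CPM in spleen Gr-1lo and 0.0748 and 0.248 CPM in BM Gr-1hi libraries, and at 0 in both BM Gr-1lo libraries. It was at least 22.1-fold higher in spleen than in BM Gr-1lo cells, taking 3 counts over the BM group as the limit, and had a log2 fold change of 3.44 (SE 0.56, adjusted p = 0.00394) between spleen and BM Gr-1hi cells. T cell markers, listed above for Gr-1hi cells, summed to between 19.0 and 28.6 CPM in spleen Gr-1lo and between 1.86 and 2.27 CPM in BM Gr-1lo libraries, and NK cell markers to between 4.50 and 5.41 CPM and between 0.533 and 1.02 CPM. Their part in the *Ifng* level was not tested.

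In Gr-1hi against Gr-1lo cells 9 of the 30 tested genes were higher and 9 lower in BM, against 24.2% and 33.1% of all genes, and 11 were higher and 9 lower in spleen, against 22.3% and 27.4%. Of the 10 sensors and adaptors 0 were higher and 6 lower in either tissue, and of the 6 receptors 3 were higher in BM and 2 in spleen, with 0 lower. Between spleen and BM, 9 of the 30 were higher and 0 lower in Gr-1hi cells, and 2 were higher and 0 lower in Gr-1lo cells, against 14.0% and 1.48% of all genes in Gr-1hi and 3.84% and 0.215% in Gr-1lo cells. The 2 were *Ifng* and *Ifnlr1*, the receptor subunit of type III interferons, at 8.61 and 6.96 CPM in spleen and 3.09 and 2.89 CPM in BM Gr-1lo libraries (log2 fold change 1.37, SE 0.19, adjusted p = 0.00391). The median of the 30 genes was 0.58 in Gr-1hi and 0.19 in Gr-1lo cells, and the latter was the same with *Ifng* at its bound. *Irf9*, the DNA-binding subunit of the complex, had log2 fold changes of 0.01 in Gr-1hi and -0.13 in Gr-1lo cells, with adjusted p = 0.961 and 0.476 in edgeR's test. *Irf7*, the factor that amplifies interferon production, was at 427 and 364 CPM in spleen Gr-1hi, 193 and 243 CPM in BM Gr-1hi, 129 and 142 CPM in spleen Gr-1lo and 78.9 and 92.3 CPM in BM Gr-1lo libraries. It was higher in spleen by 0.86 (SE 0.14, adjusted p = 0.00284) in Gr-1hi and 0.66 (SE 0.14, adjusted p = 0.0292) in Gr-1lo cells, below the fold limit.

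Besides *Ifng*, the 8 genes called higher in spleen than in BM Gr-1hi cells were *Irf8*, a transcription factor of monocytes and dendritic cells, the feedback inhibitors *Socs1* and *Socs3*, and the sensor or adaptor genes *Tlr3*, *Tlr9*, *Mavs*, *Ikbke* and *Tmem173*. *Irf8* was at 51.0 and 46.6 CPM in spleen Gr-1hi, 5.38 and 10.5 CPM in BM Gr-1hi, 192 and 238 CPM in spleen Gr-1lo and 228 and 337 CPM in BM Gr-1lo libraries. The log2 fold change in Gr-1hi cells was 2.63 (SE 0.32, adjusted p = 0.00137). *Socs3*, an inhibitor of cytokine receptors, was at 1241 and 1019 CPM in spleen and 263 and 277 CPM in BM Gr-1hi libraries (log2 fold change 2.06, SE 0.17, adjusted p = 0.000208), and *Socs1* had a log2 fold change of 1.94. *Mavs*, the adaptor of RIG-I and MDA5, was at 5.30 and 4.59 CPM in spleen Gr-1hi, 1.27 and 1.53 CPM in BM Gr-1hi and between 21.3 and 24.5 CPM in Gr-1lo libraries. The DNA-sensing adaptor STING, encoded by *Tmem173*, was at 20.3 and 13.8 CPM in spleen Gr-1hi, 6.47 and 10.3 CPM in BM Gr-1hi and between 128 and 159.6 CPM in Gr-1lo libraries. In both tissues these 2 adaptors were thus lower in Gr-1hi cells, with a log2 fold change of -4.12 and -2.12 for *Mavs* and of -4.03 and -3.12 for *Tmem173* in BM and spleen. *Tlr9*, a sensor of DNA, was at 12.1 and 10.5 CPM in spleen and 1.46 and 2.39 CPM in BM Gr-1hi libraries. *Tlr3*, a sensor of double-stranded RNA, was at 2.53 and 3.25 CPM in spleen and 0.0374 and 0.330 CPM in BM Gr-1hi libraries. *Ikbke*, a kinase that activates interferon regulatory factors, had a log2 fold change of 1.19 between spleen and BM Gr-1hi cells.

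For comparison, 15 GTPase genes that respond mainly to interferon-gamma were counted by the same tests. Between spleen and BM Gr-1hi cells 3 of the 15 (20.0%) were higher and 0 lower, against 14.0% and 1.48% of all genes. The median log2 fold change was 2.11. Between spleen and BM Gr-1lo cells 0 passed in either direction, with a median of 0.35. Higher in spleen without overlap of libraries were 15 of the 15 in Gr-1hi and 1 in Gr-1lo cells, against 35.9% and 27.1% of all genes. Between the subsets 3 were higher and 3 lower in Gr-1hi cells of BM (24.2% and 33.1% of all genes), with a median of -0.37, and 6 were higher and 0 lower in spleen (22.3% and 27.4%), with a median of 1.39. The members' medians for the same 4 comparisons were 0.74, 0.45, 1.11 and 1.56, and no test was made between the lists.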

How the data were processed

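RNA-seq libraries were made with a stranded mRNA kit and read as 101-base pairs. The authors aligned the reads to GRCm38 with STAR and deposited the counts per gene from featureCounts, unnormalized, for 54188 genes in 8 libraries. Groups were taken from the sample titles. Counts were scaled by TMM and tested in edgeR 4.0.16 (R 4.3.3) with filterByExpr, 1 term per group over all 8 libraries, the robust quasi-likelihood test and Benjamini-Hochberg adjustment over 17650 genes, with 4 residual degrees of freedom. The study tested quantile-normalized TPM, which was run here as an alternative beside RLE and upper-quartile scaling, DESeq2 1.42.0, no filter, a fit of the 4 libraries compared, and leaving out libraries. The standard error (SE) is the log2 fold change over the square root of the F statistic. RPKM and 101-base stretches used exons of GENCODE M21 on GRCm38, while the study counted on a later release of the same build, so overlaps and lengths may differ slightly. Genes given in every library were, per role, the 2 with the largest change between spleen and BM at 5 CPM or more, those called in the interaction, the 3 largest between the subsets in each tissue, and those against the majority. The result for a further gene of the pathway list is not reported here. The members, lists and rules were chosen with earlier results of these data known. Depth was 33453580 to 68316154 counts per library. The procedure was tested on simulated counts for the comparisons of spleen with BM only, with genes drawn independently of each other. Those counts held no shift shared by many genes between libraries of a group.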

Additional observations from a re-analysis of the deposited data

Results flagged for a closer look

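*Mx1* differed between the subsets in its tissue effect: the log2 fold change of spleen against BM was 2.06 in Gr-1hi and -0.09 in Gr-1lo cells, a difference of 2.15 (SE 0.37, adjusted p = 0.00942, edgeR's quasi-likelihood test of the interaction). Both spleen Gr-1hi libraries were above both BM Gr-1hi libraries, and the Gr-1lo libraries of spleen and BM overlapped. Without libraries 5 and 7 the difference was 2.07 and did not pass (adjusted p = 0.0859 in edgeR's test).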

How the results depend on the processing

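No paired analysis was possible because the library numbers all differ and no source says which libraries share a mouse. The study calls the BM cells autologous, but by *Xist* and *Ddx3y* library 5 shares no animal with any BM library. With 2 libraries per group and 4 residual degrees of freedom, a fit without a library assumes that the lone library of its group varies like the others. Over the alternatives, the values of members that passed an adjusted p of 0.05 in a comparison kept their direction and their call or lack of one 1334 times, lost a call 72 times, gained one 21 times and turned 2 times: *Ifitm3* between the subsets was -0.159 in BM and -0.228 in spleen on quantile-normalized TPM. The cause of each change was not tested.

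Between spleen and BM Gr-1hi cells the 8 higher members became 5 with no filter, 5 on quantile-normalized TPM and 1 without libraries 5 and 7, and between Gr-1lo cells the 0 became 1 with no filter and 2 without libraries 5 and 7. The interaction called 2 members with no filter, 3 in DESeq2 and 0 without libraries 5 and 7. Under that last setting the median between the spleen subsets was 1.28. Leaving out 1 library at a time gave 2 to 12 higher members (median log2 fold change 0.423 to 0.963) for Gr-1hi and 0 to 2 (0.287 to 0.530) for Gr-1lo cells between spleen and BM, 16 to 22 between the BM subsets, 18 to 24 (1.33 to 1.67) between the spleen subsets and 1 to 3 (0.0235 to 0.453) in the interaction. The other counts of calls were within 1.5 times their values in all 8 libraries. Low counts limit *Mx2* and *Ifi44* in BM Gr-1hi cells.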
